A study of Mus musculus with 8 samples.

Results

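The Slc25 carriers are the largest family of transporters in the inner mitochondrial membrane. The members described here are all genes with a probe set that the platform annotation assigns to exactly 1 gene and whose symbol is Slc25a followed by a number. The rule also allowed Ucp2, which has no such probe set and was not analysed here, and the same holds for Slc25a52. The rule found 46 genes with 50 probe sets, of 19938 genes with a probe set of their own on the array. Of these 46, 40 passed a filter on low signal and were among the 13356 genes tested. Slc25a21, Slc25a31, Slc25a33, Slc25a41, Slc25a53 and Slc25a54 did not pass it, and each was at or below the 40th percentile of signal on all 8 arrays.

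Gene expression was measured on 8 Affymetrix arrays of total RNA from mouse bone marrow cells sorted by flow cytometry, and every mouse sampled carried a Zeb2-GFP fusion reporter in heterozygous form, so all groups share that allele. Common dendritic cell progenitors (CDPs), from which dendritic cells (DCs) arise, were sorted into a fraction with high reporter signal (Zeb2hi CDPs, 3 arrays) and a fraction with low signal (Zeb2low CDPs, 3 arrays). Pre-CD8 DCs, precursors of the CD8+ classical DC also known as cDC1, were measured on 2 arrays. The labels give no sort markers, ages or treatments. They also leave unsaid whether arrays of a group came from separate mice, so each p-value reflects array-to-array spread that may be technical. RNA was amplified from small amounts before hybridisation.

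The Zeb2 transcript itself had a mean log2 signal of 9.27 in Zeb2hi CDPs, 7.68 in Zeb2low CDPs and 6.73 in pre-CD8 DCs. Array medians lay between 4.91 and 5.14 on the log2 scale, and the 40th percentile lay between 4.31 and 4.62. The pre-CD8 DC arrays stand apart from each other: they correlated at 0.937 across genes, and array 2 correlated with the Zeb2low arrays at 0.954 on average. Of the 9 cDC1 markers, Itgae was below the 40th percentile on all arrays and Xcr1 was above it on the pre-CD8 DC arrays alone, and their summed linear signal was 1439 to 1982 in Zeb2hi CDPs, 2577 to 2693 in Zeb2low CDPs and 5023 to 5034 in pre-CD8 DCs. Id2 and Irf8 weigh most in the cDC1 sum of Zeb2low CDPs and pre-CD8 DCs. In Zeb2hi CDPs Irf8 weighs most (mean log2 signal 10.32), and Id2 (5.73) lies below Clec9a (7.83). From Zeb2hi to Zeb2low CDPs Id2 was 4.35 higher on the log2 scale, Xcr1 and Clec9a were at 0.22 and 0.16, and Irf8 at -0.59. Of the 8 tested, 7 were above 0 there. The 4 CDP markers summed to 1993 to 2188 in Zeb2hi CDPs, 1525 to 1882 in Zeb2low CDPs and 1596 to 1701 in pre-CD8 DCs. In pre-CD8 DCs against Zeb2hi CDPs Kit was at 1.02, Flt3 at 0.01, Cx3cr1 at -1.15 and Csf1r at -1.75.

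The inner mitochondrial membrane is closed to most charged molecules, and the carriers swap substrates across it through a channel that opens to 1 side at a time. The ADP/ATP carriers export the ATP made by oxidative phosphorylation, the phosphate carrier supplies its phosphate, and other members carry citrate, malate, amino acids, cofactors and iron. Blood cell precursors use several of them, among them the iron importer mitoferrin-1 in erythroid cells. In bulk samples of sorted cells, fewer cells of a type and less RNA per cell cannot be told apart.

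Promoter sequences are shown for the carriers that differed between pre-CD8 DCs and Zeb2hi CDPs and have an entry in the RefSeq promoter table (build GRCm38.p6), which covers 250 bases before to 50 after the start of a gene. Of the 46 carrier genes 36 have an entry, with 46 promoters in all. Each sequence runs 5′ to 3′ along the gene, and capitals mark a motif found by search on both strands. ETS factors bind CCGGAAG, and the E-box searched was CACGTG. The NRF1 consensus was searched too, with AAGGTCA for the oestrogen-related receptors. A run close to the TATA box, ATATAAG, was added after the sequences had been read. The windows lie at chr10:91123918-91124217 on the minus strand for Slc25a3, chr8:46211013-46211312 on the minus strand for Slc25a4, chrX:36795347-36795646 on the plus strand for Slc25a5 and chr6:6217124-6217423 on the minus strand for Slc25a13.
Slc25a3: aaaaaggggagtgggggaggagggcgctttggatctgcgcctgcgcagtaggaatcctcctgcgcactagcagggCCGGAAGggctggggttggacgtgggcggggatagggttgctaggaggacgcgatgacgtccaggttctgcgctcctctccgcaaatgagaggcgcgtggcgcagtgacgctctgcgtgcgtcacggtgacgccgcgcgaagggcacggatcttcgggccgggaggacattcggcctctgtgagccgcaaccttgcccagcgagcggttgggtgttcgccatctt
Slc25a4: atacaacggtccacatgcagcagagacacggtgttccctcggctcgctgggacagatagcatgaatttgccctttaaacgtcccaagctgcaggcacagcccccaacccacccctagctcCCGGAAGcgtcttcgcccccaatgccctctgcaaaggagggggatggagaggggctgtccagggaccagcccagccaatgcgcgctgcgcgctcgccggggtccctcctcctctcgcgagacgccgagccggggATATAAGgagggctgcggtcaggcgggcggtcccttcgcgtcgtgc
Slc25a5: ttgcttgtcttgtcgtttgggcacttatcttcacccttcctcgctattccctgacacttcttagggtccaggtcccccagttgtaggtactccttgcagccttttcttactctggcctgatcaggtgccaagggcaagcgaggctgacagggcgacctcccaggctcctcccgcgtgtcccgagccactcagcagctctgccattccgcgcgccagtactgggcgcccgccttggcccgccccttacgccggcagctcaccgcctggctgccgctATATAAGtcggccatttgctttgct
Slc25a13: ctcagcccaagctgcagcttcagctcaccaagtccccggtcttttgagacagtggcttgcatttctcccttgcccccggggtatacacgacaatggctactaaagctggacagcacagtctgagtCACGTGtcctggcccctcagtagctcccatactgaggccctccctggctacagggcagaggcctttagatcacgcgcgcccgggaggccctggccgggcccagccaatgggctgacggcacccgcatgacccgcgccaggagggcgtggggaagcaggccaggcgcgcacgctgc

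The phosphate carrier promoter held CCGGAAG at -175, and that of the ADP/ATP carrier Slc25a4 held it at -130 with ATATAAG at +5. The promoter of Slc25a5, the other ADP/ATP carrier, held ATATAAG at +26 and no match to the other motifs. The Slc25a13 promoter held CACGTG at -125. CCGGAAG was also found in the promoters of Slc25a17 (at -77) and Slc25a20 (at -79), so it was present for 4 of the 6 carriers with a promoter that passed the test in some comparison. Over all carrier promoters it was found in 7 of 46 (15.2%), against 15.9% of the promoters of genes tested and 8.86% of all promoters. The E-box was found in 8 of 46 (17.4%), against 9.73% of the promoters of genes tested and 7.15% of all promoters. The carrier promoters include those of untested carriers, and Slc25a31 and Slc25a33 are among the matches. Overlapping windows of Slc25a14 count the same E-box again. Counted by gene, it was in 7 of 36 carriers, 1212 of 10625 genes tested and 2187 of 27025 genes in all. The NRF1 consensus was found in 0 of 46 and in 1.89% of those of genes tested. AAGGTCA was in 2.17% and 3.36%, and ATATAAG in 4.35% and 1.35%. A match describes the letters of these windows and not a site in use.

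Between Zeb2low and Zeb2hi CDPs, 6 single carrier genes were lower in the Zeb2low fraction, Slc25a3, Slc25a5, Slc25a13, Slc25a17, Slc25a20 and Slc25a51, each by 1.69-fold to 1.97-fold. Relatives with a like substrate did not all do so, since Slc25a4 differed by 0.21 and Slc25a12 by -0.12 on the log2 scale, neither past the test. Of the 40 carriers tested 0 were higher and 6 were lower (limma, adjusted p under 0.05), which is 15.0%. Over all genes 4.5% were higher and 10.3% were lower, 14.8% in all, so the share of carriers called in either direction is near that of all genes. The median log2 difference of the carriers was -0.20, against 0.03 for all genes, and 29 of 40 were below 0 (72.5%, all genes 47.8%). The count of lower carriers fell to 1 without Zeb2hi array 2 or without Zeb2low array 3, to 2 without Zeb2hi array 3 and to 3 without Zeb2low array 1. Calls over all genes moved too, from 601 higher and 1377 lower to 163 and 358 without Zeb2hi array 2. In the paired fit of the CDP arrays, with the replicate number as a block, 12 were lower and 1, Slc25a35, was higher (0.41, adjusted p = 0.046). The paired fit also called more of all genes, 1517 higher and 2547 lower, and its pairing was read from these values. At an unadjusted p under 0.05, 0 carriers were higher and 14 lower (35.0%), against 13.2% and 19.6% of all genes. Arrays of the groups did not overlap for 12 carriers that were lower and 2 that were higher (all genes 21.5% lower and 20.2% higher).

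In pre-CD8 DCs against Zeb2hi CDPs 0 carriers were higher and 5 lower (12.5% of 40), where 6.51% of all genes were higher and 11.1% lower, 17.6% in all. The carriers' median log2 difference was -0.07 (all genes -0.02), and 25 of 40 were below 0 (62.5%, all genes 51.5%). The count of lower carriers was 2 without Zeb2hi array 2 or 3 and 3 without Zeb2hi array 1, without pre-CD8 DC array 1 or with a replicate block over all arrays. At an unadjusted p under 0.05, 2 were higher and 11 lower (27.5%), against 12.2% and 19.6% of all genes, and arrays did not overlap for 3 that were higher and 15 that were lower (all genes 21.4% and 27.1%). From Zeb2low CDPs to pre-CD8 DCs 0 carriers passed in either direction, as did 0.337% (higher) and 0.217% (lower) of all genes, or 0.554% in all. There 28 of 40 carriers were above 0, with a median log2 difference of 0.07 (all genes -0.03), and 1 was higher and 2 lower at an unadjusted p under 0.05 (2.5% and 5.0%, against 6.23% and 6.96% of all genes). The other settings that include pre-CD8 DCs gave 0 in each direction too, except the fit without pre-CD8 DC array 2, where 1 carrier was higher. The Zeb2hi arrays enter both comparisons against Zeb2hi CDPs and the Zeb2low arrays enter both steps, so the comparisons are not independent. In a test over the 3 groups together (limma's moderated F), 7 of 40 carriers passed (17.5%), against 17.9% of all genes, and 1 passed without Zeb2hi array 2 or 3, 4 without Zeb2low array 3 or pre-CD8 DC array 1, and 4 with the replicate block over all arrays.

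**Figure D1:**
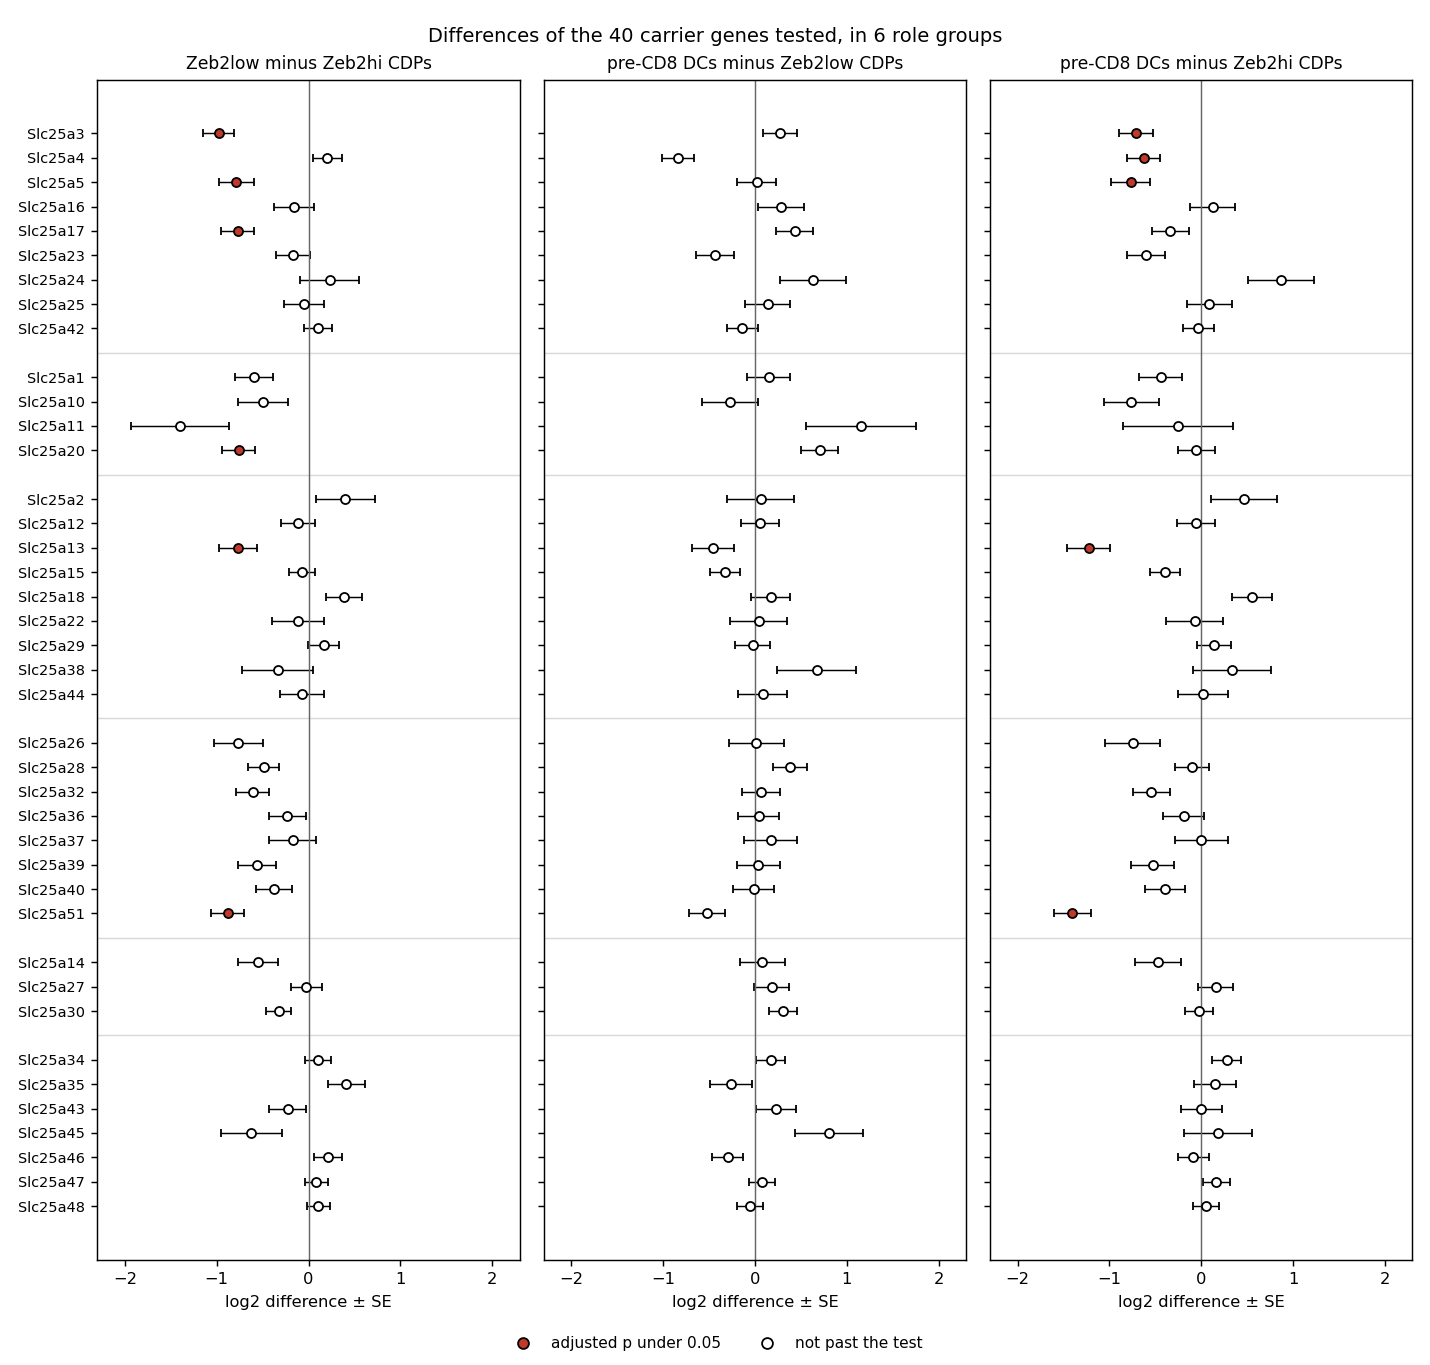
Log2 differences (x axis) with standard errors for the 40 carrier genes tested, in 6 role groups separated by grey lines, for the 3 comparisons; filled points passed the test. Filled points lie at or below -0.63, and the middle panel has none.

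Carriers of ATP, ADP, phosphate and coenzyme A made up 9 of the genes tested, of 11 in that group. In Zeb2low against Zeb2hi CDPs 3 of 9 were lower (median log2 difference -0.16), and in pre-CD8 DCs 3 of 9 were lower (median -0.34). Over all genes 10.3% and 11.1% were lower in these comparisons. Slc25a3 (probe set 10371877), which imports phosphate and copper, had log2 signals of 9.94, 9.85 and 9.87 in Zeb2hi CDPs, 8.80, 8.88 and 9.05 in Zeb2low CDPs and 9.44 and 8.92 in pre-CD8 DCs. All 3 Zeb2hi arrays were above the other 5. The difference from Zeb2hi to Zeb2low CDPs was -0.98 ± 0.17 on the log2 scale (SE, limma, adjusted p = 0.00849), a 1.97-fold lower signal that passed in each of the 8 fits without 1 array. In pre-CD8 DCs it was -0.71 ± 0.19 (limma, adjusted p = 0.0323) against Zeb2hi CDPs. That call was lost without pre-CD8 DC array 2 (-0.44, adjusted p = 0.161) and without any 1 of Zeb2hi arrays 1, 2 or 3 (adjusted p = 0.0701, adjusted p = 0.0856 and adjusted p = 0.088, in that order). Quantile normalization (adjusted p = 0.0532) and a fit of all arrays blocked by replicate number (adjusted p = 0.0794) ended it as well. The step from Zeb2low CDPs to pre-CD8 DCs was 0.27 ± 0.19 (limma, adjusted p = 0.562).

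Slc25a5 (10523479), the ADP/ATP carrier of growing cells, had log2 signals of 11.20, 11.46 and 11.40 in Zeb2hi CDPs, 10.65, 10.85 and 10.19 in Zeb2low CDPs and 10.45 and 10.71 in pre-CD8 DCs. Again the Zeb2hi arrays lay above all others, and the last groups overlapped. The log2 difference was -0.79 ± 0.19 in Zeb2low CDPs (limma, adjusted p = 0.029) and -0.77 ± 0.22 in pre-CD8 DCs (limma, adjusted p = 0.0405), or 1.73-fold and 1.70-fold lower. The first did not pass with Zeb2hi array 2 left out (adjusted p = 0.114), nor with array 3 left out (adjusted p = 0.104), nor without Zeb2low array 3 (adjusted p = 0.0766) nor after quantile normalization (-0.39, adjusted p = 0.242), which moved its value by over 1.5 times. The other was lost without pre-CD8 DC array 1 (adjusted p = 0.185) or 2 (adjusted p = 0.0641), without Zeb2hi arrays 1, 2 or 3 (adjusted p = 0.0521, adjusted p = 0.124 and adjusted p = 0.114, in that order), and after quantile normalization (adjusted p = 0.143), array weights (adjusted p = 0.0532) or leaving out Zeb2low array 1 together with pre-CD8 DC array 1 (adjusted p = 0.16). Slc25a5 has 2 further probe sets. Probe set 10599215 read 11.09, 11.40 and 11.32 in Zeb2hi CDPs, 10.20, 10.24 and 9.95 in Zeb2low CDPs and 10.25 and 10.12 in pre-CD8 DCs, and 10355996 read 9.76, 10.47 and 9.96, then 8.03, 8.30 and 8.18, then 8.87 and 8.23. On both, all Zeb2hi arrays lay above all others, with Zeb2low differences of -1.14 (limma, adjusted p = 0.00362) and -1.90 (limma, adjusted p = 0.00293) when every probe set was its own row. In pre-CD8 DCs against Zeb2hi CDPs they were at -1.08 (limma, adjusted p = 0.0046) and -1.51 (limma, adjusted p = 0.00647). These further probe sets were fitted in that setting alone. The gene has near-identical copies in the genome, so which copy each probe set reads is uncertain.

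Slc25a4 (10578539), the ADP/ATP carrier known from muscle and heart, had log2 signals of 9.24, 9.29 and 9.17 in Zeb2hi CDPs, 9.64, 9.28 and 9.41 in Zeb2low CDPs and 8.43 and 8.79 in pre-CD8 DCs. Both pre-CD8 DC arrays lay below all CDP arrays, whose fractions overlapped. In pre-CD8 DCs the log2 difference from Zeb2hi CDPs was -0.63 ± 0.18 (limma, adjusted p = 0.0404), a 1.54-fold lower signal, and that from Zeb2low CDPs was -0.83 ± 0.18 (limma, adjusted p = 0.0924). Between the CDP fractions it was 0.21 ± 0.16 (limma, adjusted p = 0.38). The call held in 2 of the 8 fits without 1 array, and was lost without pre-CD8 DC array 1 (adjusted p = 0.209), any Zeb2hi array (adjusted p = 0.076, 0.121 and 0.0937 for arrays 1 to 3) or Zeb2low array 2 (adjusted p = 0.0508) or array 3 (adjusted p = 0.0644). Further losses came after quantile normalization (adjusted p = 0.171), with the replicate block over all arrays (adjusted p = 0.0937), under trended and robust variances (adjusted p = 0.0514) and without Zeb2low array 1 and pre-CD8 DC array 1 together (adjusted p = 0.124).

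Slc25a17 (10430711), a carrier of coenzyme A and related cofactors in peroxisomes, had log2 signals of 7.18, 7.70 and 7.64 in Zeb2hi CDPs, 6.65, 6.67 and 6.88 in Zeb2low CDPs and 7.33 and 7.01 in pre-CD8 DCs. The Zeb2low arrays were the lowest and did not overlap either other group. The log2 difference between the CDP fractions was -0.77 ± 0.18 (limma, adjusted p = 0.0254), 1.71-fold lower. It did not pass with Zeb2hi array 2 left out (adjusted p = 0.108), nor with array 3 left out (adjusted p = 0.103), nor without Zeb2low arrays 1, 2 or 3 (adjusted p = 0.0575, adjusted p = 0.0741 and adjusted p = 0.0511, in that order). The pre-CD8 DC difference from Zeb2low CDPs was 0.43 ± 0.20 (limma, adjusted p = 0.4) and from Zeb2hi CDPs -0.34 ± 0.20 (limma, adjusted p = 0.296).

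**Figure D2:**
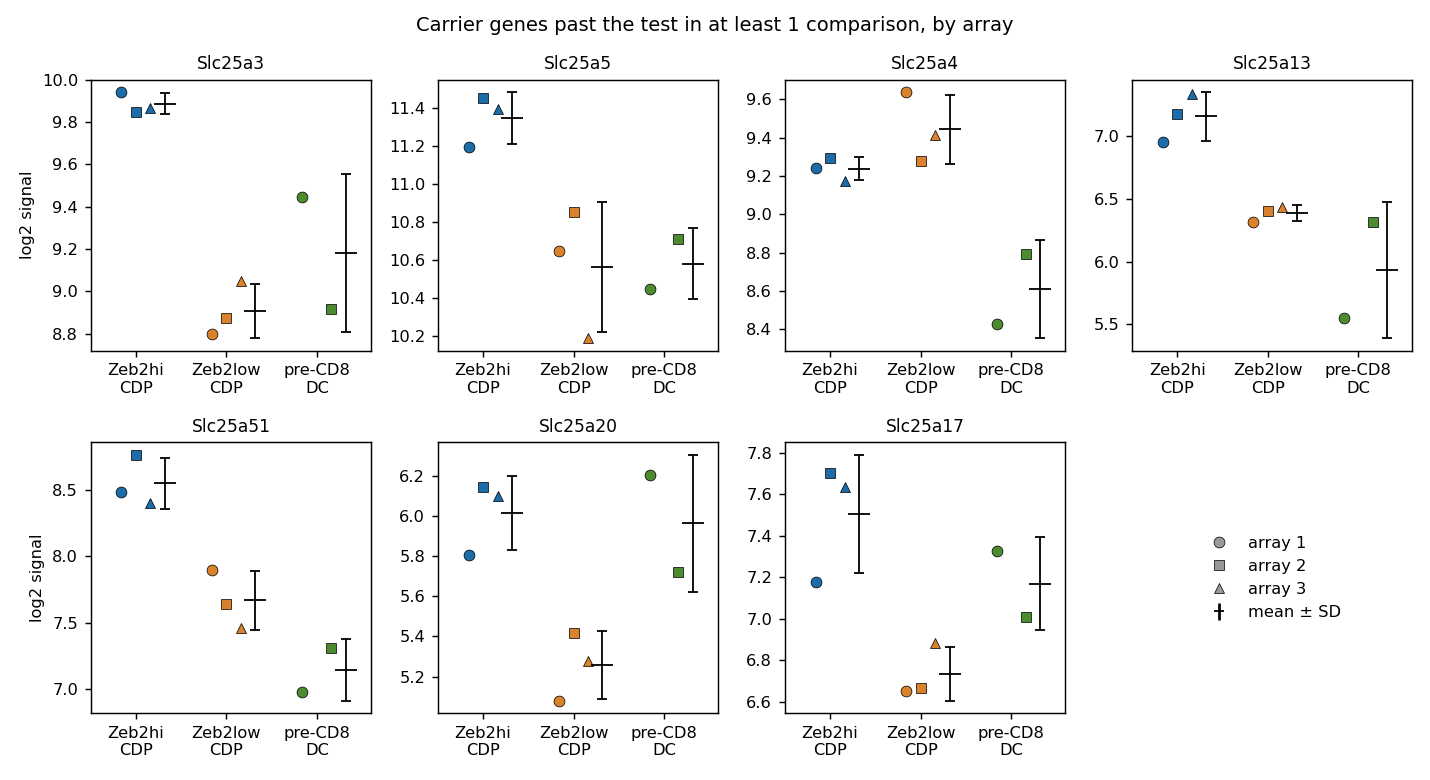
Log2 signal (y axis) on each of the 8 arrays for the 7 carriers that passed the test in at least 1 comparison, 1 panel a gene, with a symbol for each array and bars for the group mean ± SD; the y axes differ and do not start at 0. The Zeb2hi points lie above all Zeb2low points in 6 of the 7 panels, and Slc25a4 is the exception.

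Among carriers of di- and tricarboxylates and acylcarnitines, 4 of 5 were tested and all 4 were below 0 between the CDP fractions (median log2 difference -0.68). Of these 1 passed the test as lower. For all genes 47.8% were below 0 and 10.3% were called lower. Slc25a20 (10589076), which brings acylcarnitines in for fatty acid oxidation, had log2 signals of 5.80, 6.14 and 6.10 in Zeb2hi CDPs, 5.08, 5.41 and 5.28 in Zeb2low CDPs and 6.20 and 5.72 in pre-CD8 DCs. The Zeb2low arrays were below both other groups, which overlapped each other. The difference was -0.76 ± 0.18 on the log2 scale (limma, adjusted p = 0.026), 1.69-fold lower. This did not pass with Zeb2hi array 2 left out (adjusted p = 0.108), nor with array 3 left out (adjusted p = 0.102), nor without Zeb2low array 1 (adjusted p = 0.0628) or array 3 (adjusted p = 0.0692), nor in a fit of all arrays blocked by replicate number (adjusted p = 0.0595). The pre-CD8 DC difference from Zeb2low CDPs was 0.71 ± 0.20 (limma, adjusted p = 0.192), and from Zeb2hi CDPs it was -0.05 ± 0.20 (limma, adjusted p = 0.888).

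Slc25a1, the citrate carrier that feeds fatty acid and sterol synthesis, had log2 signals of 7.27, 7.87 and 7.64 in Zeb2hi CDPs, 6.63, 7.20 and 7.17 in Zeb2low CDPs and 7.09 and 7.21 in pre-CD8 DCs. All Zeb2hi arrays were above the rest, with a Zeb2low difference of -0.59 ± 0.21 (limma, adjusted p = 0.092) that passed in the paired CDP fit (adjusted p = 0.0137). Slc25a10, the dicarboxylate carrier, read 5.89, 7.00 and 6.93 in Zeb2hi CDPs, 6.10, 6.11 and 6.14 in Zeb2low CDPs and 5.88 and 5.81 in pre-CD8 DCs. Zeb2hi array 1 lay below the Zeb2low arrays and the other Zeb2hi arrays above them, and the pre-CD8 DC arrays were the lowest. With all arrays the Slc25a10 differences were -0.49 ± 0.27 in Zeb2low CDPs (limma, adjusted p = 0.235) and -0.76 ± 0.30 in pre-CD8 DCs (limma, adjusted p = 0.121), and without Zeb2hi array 1 they were -0.85 (adjusted p = 0.0105) and -1.12 (adjusted p = 0.00477). Slc25a11, the oxoglutarate carrier of the malate-aspartate shuttle, read 7.58, 8.45 and 8.28 in Zeb2hi CDPs, 5.37, 7.36 and 7.38 in Zeb2low CDPs and 8.35 and 7.36 in pre-CD8 DCs. Zeb2low array 1 was far below its group, while the Zeb2low and Zeb2hi arrays did not overlap. The difference was -1.40 ± 0.54 (limma, adjusted p = 0.11), the lowest of the 40 carriers, and it passed in the paired CDP fit (adjusted p = 0.00778). Its value without Zeb2low array 1 was -0.74.

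Of 9 amino acid carriers 1 was lower in each comparison against Zeb2hi CDPs (median log2 differences -0.07 in Zeb2low CDPs and 0.02 in pre-CD8 DCs). The shares of all genes that were lower there were 10.3% and 11.1%. Slc25a13 (10543031), or citrin, exports aspartate in the malate-aspartate shuttle. Its log2 signals were 6.96, 7.18 and 7.34 in Zeb2hi CDPs, 6.32, 6.41 and 6.44 in Zeb2low CDPs and 5.55 and 6.32 in pre-CD8 DCs. The Zeb2hi arrays lay above the rest. The log2 difference was -0.77 ± 0.21 in Zeb2low CDPs (limma, adjusted p = 0.0388) and -1.23 ± 0.23 in pre-CD8 DCs (limma, adjusted p = 0.00887), or 1.71-fold and 2.34-fold lower. The pre-CD8 DC call held in all 8 fits without 1 array. The Zeb2low call did not pass with Zeb2hi array 2 left out (adjusted p = 0.126), nor with array 3 left out (adjusted p = 0.145), nor without Zeb2low arrays 1, 2 or 3 (adjusted p = 0.0845, adjusted p = 0.0899 and adjusted p = 0.0881, in that order), nor after quantile normalization (adjusted p = 0.0629).

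Slc25a12, which has the same role as citrin, read 8.07, 8.48 and 8.39 in Zeb2hi CDPs, 7.88, 8.33 and 8.38 in Zeb2low CDPs and 8.14 and 8.36 in pre-CD8 DCs. All groups overlapped, and the log2 differences from Zeb2hi CDPs were -0.12 ± 0.19 in Zeb2low CDPs (limma, adjusted p = 0.682) and -0.06 in pre-CD8 DCs (limma, adjusted p = 0.877). Slc25a38, the glycine carrier needed for haem synthesis, read 5.28, 5.90 and 6.55 in Zeb2hi CDPs, 5.09, 5.62 and 6.02 in Zeb2low CDPs and 6.75 and 5.75 in pre-CD8 DCs. Its groups overlapped too, with a Zeb2low difference of -0.34 ± 0.38 (limma, adjusted p = 0.553).

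Of the carriers of vitamins, nucleotides, glutathione and iron, 8 of 9 were tested, and all 8 were below 0 in Zeb2low CDPs (median log2 difference -0.53). Of these 1 passed the test as lower, and for all genes 47.8% were below 0 and 10.3% were called lower. Slc25a26, which carries S-adenosylmethionine, was at -0.76 (limma, adjusted p = 0.0909) and passed in the blocked fit of all 8 arrays (adjusted p = 0.036) and in the paired CDP fit (adjusted p = 0.00769). Slc25a51 (10512709), which imports NAD+, had log2 signals of 8.48, 8.76 and 8.40 in Zeb2hi CDPs, 7.90, 7.64 and 7.46 in Zeb2low CDPs and 6.98 and 7.31 in pre-CD8 DCs. The 3 groups did not overlap. The log2 differences from Zeb2hi CDPs were -0.88 ± 0.18 (limma, adjusted p = 0.0152) and -1.40 ± 0.20 (limma, adjusted p = 0.00272), or 1.84-fold and 2.64-fold lower. The second call held in each of the 8 fits without 1 array. The other did not pass once Zeb2hi array 2 (adjusted p = 0.0717) or the third Zeb2low array (adjusted p = 0.0525) was removed. Between the last groups the difference was -0.52 ± 0.20 (limma, adjusted p = 0.311).

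Slc25a37, mitoferrin-1, read 6.86, 7.10 and 7.12 in Zeb2hi CDPs, 6.33, 7.14 and 7.08 in Zeb2low CDPs and 7.37 and 6.68 in pre-CD8 DCs, with all groups overlapping (Zeb2low difference -0.17 ± 0.26, limma, adjusted p = 0.655). Slc25a32, a carrier of folate and FAD, read 6.40, 6.04 and 6.08, then 5.74, 5.70 and 5.24, then 5.55 and 5.71. Its Zeb2hi arrays did not overlap the rest, at -0.61 ± 0.18 in Zeb2low CDPs (limma, adjusted p = 0.0554) and -0.54 ± 0.20 in pre-CD8 DCs (limma, adjusted p = 0.102). It passed in Zeb2low CDPs when arrays were centred on their medians (adjusted p = 0.016) and in the paired CDP fit (adjusted p = 0.0204). Slc25a39, the glutathione carrier, read 7.61, 8.06 and 8.04, then 7.04, 7.71 and 7.28, then 7.26 and 7.49. One Zeb2low array lay above the lowest Zeb2hi array, and the difference was -0.56 ± 0.21 (limma, adjusted p = 0.101), which passed in the paired CDP fit (adjusted p = 0.0215). Slc25a33, a pyrimidine nucleotide carrier, was read at 3.83 to 4.03 in Zeb2hi CDPs, 3.82 to 4.03 in Zeb2low CDPs and 4.31 and 4.15 in pre-CD8 DCs, all at or below the 40th percentile of each array.

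For Slc25a36, a pyrimidine nucleotide carrier, the probe sets disagree. The main one, 10595856, read 7.74, 7.41 and 7.32 in Zeb2hi CDPs, 7.59, 6.90 and 7.30 in Zeb2low CDPs and 7.31 and 7.29 in pre-CD8 DCs. The CDP fractions overlapped (-0.23 ± 0.20, limma, adjusted p = 0.44), and the pre-CD8 DC arrays lay just below the lowest Zeb2hi array. Probe set 10479979 read 6.91, 6.53 and 6.49, then 4.89, 4.46 and 5.02, then 5.99 and 4.94, so that the Zeb2hi arrays lay above all others. As its own row it was lower in Zeb2low CDPs (-1.85, limma, adjusted p = 0.00578) and in pre-CD8 DCs (-1.18, limma, adjusted p = 0.0345). Whether 10479979 and 10595856 read the same locus was not tested. Both probe sets of Slc25a40 were not past the test between the CDP fractions (-0.38, limma, adjusted p = 0.213, and 0.06, limma, adjusted p = 0.867).

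**Figure D3:**
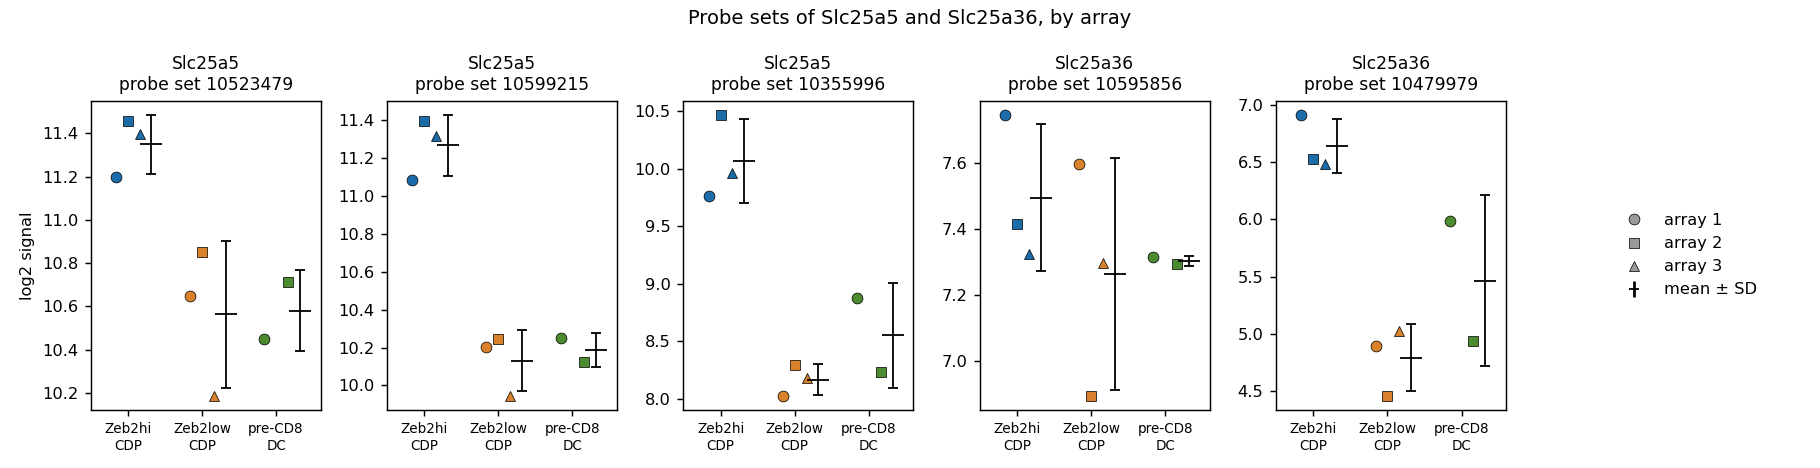
Log2 signal (y axis) on each of the 8 arrays for the 3 probe sets of Slc25a5 and the pair of Slc25a36, 1 panel a probe set, with bars for the group mean ± SD and y axes that differ. The Zeb2hi arrays lie above all others for each Slc25a5 probe set and for Slc25a36 probe set 10479979, and overlap the Zeb2low arrays for 10595856.

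The 3 tested carriers of the uncoupling protein branch had a median difference of -0.32 in Zeb2low CDPs. Of these 0 were called, where 4.5% of all genes were higher and 10.3% lower. The 7 tested of less settled role had a median of 0.10 with 0 called, and Slc25a45 among them (-0.62, limma, adjusted p = 0.22) passed in the paired CDP fit (adjusted p = 0.0108). Over all 40 carriers the log2 differences in Zeb2low CDPs ranged from -1.40 to 0.41. In pre-CD8 DCs against Zeb2low CDPs the 40 ranged from -0.83 to 1.15. Slc25a24, which moves ATP-magnesium and phosphate, was singled out after its values were seen, because 1 array decides it. It read 6.04, 5.95 and 5.59 in Zeb2hi CDPs, 5.97, 6.23 and 6.08 in Zeb2low CDPs and 7.44 and 6.01 in pre-CD8 DCs. Pre-CD8 DC array 1 stood above all others and array 2 did not. The difference against Zeb2hi CDPs was 0.87 ± 0.36 with both arrays (limma, adjusted p = 0.133) and was 1.58 without array 2 (adjusted p = 0.00749) and 0.15 without array 1 (adjusted p = 0.713). Against Zeb2low CDPs it was 0.64 with both (limma, adjusted p = 0.483), 1.35 without array 2 (adjusted p = 0.0499) and -0.08 without array 1 (adjusted p = 0.985).

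To place the carriers, 3 related lists were read in the same fit. Of 18 tested genes for other mitochondrial transport, 0 were higher and 5 lower in Zeb2low CDPs (median log2 difference -0.28). Mtch1 was lowest (-1.18 ± 0.28, limma, adjusted p = 0.0245). Next were Mpc1 (-1.02 ± 0.25, limma, adjusted p = 0.03) and Abcb8 (-0.80 ± 0.19, limma, adjusted p = 0.0254). Each of these calls was lost without Zeb2hi array 2 or without Zeb2hi array 3. Vdac3, an outer membrane channel, was lower as well (-0.77 ± 0.15, limma, adjusted p = 0.0148). Of 23 enzymes that use the carried metabolites, 0 were higher and 9 lower, with a median of -0.51 and 21 of 23 below 0. Over all genes 4.5% were higher, 10.3% were lower and 47.8% lay below 0. The mitochondrial isocitrate dehydrogenase Idh2 was lowest of these (-2.01 ± 0.23, limma, adjusted p = 0.00238) and passed in all 8 fits without 1 array. Of 10 biogenesis regulators 0 were higher and 1 was lower (all genes 10.3% lower), Tfam, which packages mitochondrial DNA (-1.28 ± 0.31, limma, adjusted p = 0.0284). Vdac3 did not pass with Zeb2hi array 2 left out (adjusted p = 0.0712), nor with array 3 left out (adjusted p = 0.0573), nor without Zeb2low array 3 (adjusted p = 0.0515) nor after quantile normalization (adjusted p = 0.0835). Tfam did not pass with Zeb2hi array 2 left out (adjusted p = 0.109), nor with array 3 left out (adjusted p = 0.0934), nor without Zeb2low array 2 (adjusted p = 0.0858) or array 3 (adjusted p = 0.0901) nor in the blocked fit of all arrays (adjusted p = 0.0618). In pre-CD8 DCs against Zeb2hi CDPs these lists had 1, 0 and 0 genes higher and 4, 5 and 3 lower (all genes 6.51% higher and 11.1% lower). The higher gene was Slc8b1 of the transport list (1.63 ± 0.21, limma, adjusted p = 0.002). Against Zeb2low CDPs 0 passed in each list.

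**Figure D4:**
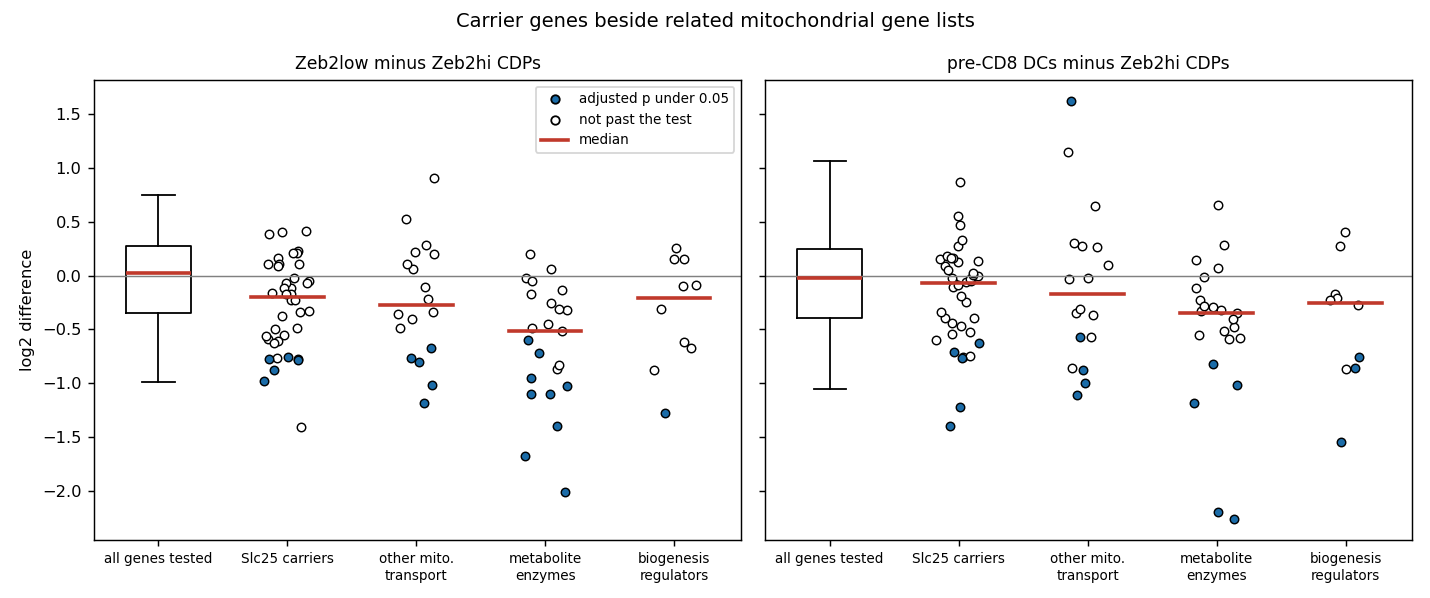
Log2 differences (y axis) of the genes on 4 lists, 1 point a gene, for the comparisons against Zeb2hi CDPs; red lines are medians, and the box for all genes tested spans the quartiles with whiskers to the 5th and 95th percentiles. In Zeb2low CDPs the medians are -0.20 for the carriers, -0.28 for other transport genes, -0.51 for the enzymes and -0.21 for the regulators.

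Markers of other cell types moved with the same comparisons, and their part in the carrier results was not tested. The 12 mature neutrophil genes summed to 10931 to 21055 in Zeb2hi CDPs, 23484 to 49120 in Zeb2low CDPs and 29458 to 57632 in pre-CD8 DCs on the linear scale, with 3 of 12 higher in Zeb2low CDPs. The 5 primary granule genes summed to 11854 to 14388, 1390 to 6071 and 4264 to 6860, with 2 of 5 lower in Zeb2low CDPs. The 9 measured dividing cell genes summed to 6778 to 8336, 5694 to 7351 and 5532 to 6958, with 3 of 9 lower in Zeb2low CDPs. They did not all move 1 way, since 6 were below 0 there and 3 above, up to 0.41. Over all genes 4.5% were higher and 10.3% lower in Zeb2low CDPs. The 7 measured erythroid genes summed to 129 to 159, 180 to 903 and 276 to 307, and Car1 alone read 9.49 on Zeb2low array 3. B cell genes summed to 452 to 512, 300 to 671 and 248 to 277, and T and NK cell genes to 97.3 to 101, 122 to 183 and 136 to 197.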

How the data were processed

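The authors deposited 1 linear intensity for each probe set and array. The submitters' processing notes name Affymetrix Expression Console and RMA (robust multi-array averaging), with no version. The table holds 28853 probe sets, of which 21789 name 1 gene, 1621 several and 5443 none. Groups came from the sample titles. Intensities were log2 transformed, probe sets above the array's own 40th percentile on at least 2 arrays were kept (14639), and each gene took its probe set with the highest mean. RMA gives no detection call, so differences near the floor are understated. All 8 arrays were fitted in limma 3.58.1 (R 4.3.3, lmFit and eBayes, two-sided), with Benjamini-Hochberg adjustment within each comparison at 0.05. Errors after ± are standard errors. Precision is limited by the number of arrays. The fit was tested on simulated data, and 18 alternative settings were run. The members, gene lists and rules were chosen with earlier results of these data known. Values on each array are given for every carrier past the test and for a set list of others chosen by role. Of each related list up to 4 genes a direction were eligible, not all of them printed, and Slc25a24, Slc25a36 and any other carrier named because a setting changes its call were added after their values were seen. Same-numbered Zeb2low and Zeb2hi arrays deviated together (r = 0.478, 0.407 and 0.308 across genes, up to 0.143 for other numbers). The paired CDP fit therefore took these numbers as pairs, from the values and not the labels. A shared sort or mouse is not established by this. The same values chose the pairing, so a pass in that fit alone is no independent support. Pre-CD8 DC numbers did not pair (r = -0.401 and -0.587 with Zeb2low arrays). All 46 carrier symbols are in the RefSeq table (GRCm38.p6), and promoters come from it; no other coordinates are given.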

Additional observations from a re-analysis of the deposited data

How the results depend on the processing

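Of 120 results on single carriers (40 genes in 3 comparisons), 27 crossed the threshold under at least 1 alternative. The sign changed in 140 of 2055 alternative values, over 55 results, and in 0 of these did either fit pass the test. Among values the text prints, quantile normalization turned Slc25a12 in Zeb2low CDPs (0.0811) and in pre-CD8 DCs (0.0471) against Zeb2hi CDPs, and the replicate block over all arrays turned the latter (0.00762). The omission of Zeb2low array 1 with pre-CD8 DC array 1 turned Slc25a12 (0.0425 and 0.0523), Slc25a37 in Zeb2low CDPs (0.0879), Slc25a2 in pre-CD8 DCs against Zeb2hi CDPs (-0.23), and Slc25a3 (-0.0467) and Slc25a24 (-0.14) in pre-CD8 DCs against Zeb2low CDPs. Without 1 array, the Slc25a12 differences ranged from -0.24 to 0.0425 and from -0.18 to 0.0523, and Slc25a37 from -0.32 to 0.0879. In pre-CD8 DCs against Zeb2hi CDPs, Slc25a20 ranged from -0.29 to 0.19 and Slc25a2 from -0.23 to 1.16. Slc25a24 ranged from -0.077 to 1.35 in pre-CD8 DCs against Zeb2low CDPs, and from 0.15 to 1.58 against Zeb2hi CDPs. Between Zeb2low and Zeb2hi CDPs, 6 carriers were lower and 0 higher; array weights gave 16 and 1, a replicate block over the CDP arrays alone 12 and 1, and leaving out Zeb2low array 1 with pre-CD8 DC array 1 gave 2 higher. In pre-CD8 DCs against Zeb2hi CDPs, 5 carriers were lower; quantile normalization gave 2, a replicate block over all arrays 3 and the joint omission 3. Over the 3 groups 7 carriers passed; array weights gave 14, the block over all arrays 4 and the joint omission 3. Without 1 array at a time, lower carriers numbered 1 to 7 in Zeb2low CDPs and 2 to 6 in pre-CD8 DCs against Zeb2hi CDPs, with 0 to 2 higher in the latter, 0 to 1 higher in pre-CD8 DCs against Zeb2low CDPs, and 1 to 9 passed over the 3 groups. The lowest counts came without Zeb2low array 3 or Zeb2hi array 2 (1) and Zeb2hi array 3 (2). Under array weights the added lower carriers were Slc25a1, Slc25a10, Slc25a11, Slc25a14, Slc25a26, Slc25a28, Slc25a30, Slc25a32, Slc25a39 and Slc25a45, and the higher one was Slc25a18. Against Zeb2hi CDPs, Slc25a2 in pre-CD8 DCs was 0.47 with both arrays (adjusted p = 0.422), 1.16 without array 2 (adjusted p = 0.0249) and -0.23 without array 1 (adjusted p = 0.609). Slc25a23 was -0.60 with both (adjusted p = 0.0762), -0.84 without array 2 (adjusted p = 0.0464) and -0.36 without array 1 (adjusted p = 0.354). Centring on array medians moved the median of all genes between the CDP fractions from 0.03 to -0.14 and that of the carriers to -0.36, and the split of all calls from 601 higher and 1377 lower to 371 and 2233; quantile normalization gave 664 and 960. Counts of all genes moved too: array weights gave 1798 higher and 2669 lower, the block over the CDP arrays 1517 and 2547, the joint omission 935 higher, and the fit without Zeb2hi array 2 gave 163 and 358. With 2 pre-CD8 DC arrays small differences are not resolved, and the causes of these changes were not tested.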
